A study of Mus musculus with 12 samples.

Results

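Collagens, versican and tenascin C were followed across 3 genotypes of cultured bone marrow stroma. A probe set was taken when its single gene symbol in the platform annotation was a collagen chain (Col, digits, a, digits), Vcan or Tnc. This rule found 14 of the 3109 probe sets tested, covering 11 of 1974 genes with a single symbol: the fibrillar collagens Col1a2, Col2a1, Col3a1 and Col5a3, the other collagens Col4a1, Col6a3, Col8a1, Col12a1 and Col18a1, and Vcan and Tnc. Of the 44 collagen genes in the mouse gene table, 9 thus had a value, and the others, Col1a1 among them, were not analysed here.

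Stroma is the attached cell layer that cultured marrow forms and that supports blood-forming cells. It came from C57BL/6 mice aged 3 to 4 months that were Crebbp+/-, Ep300+/- or wild-type, so the heterozygotes carried 1 altered copy of Crebbp or of Ep300, whose proteins acetylate histones and assist many transcription factors. Cultures of all 3 genotypes were kept for 2 weeks in M5300 medium, then irradiated with 1500 cGy and given fresh medium before RNA was extracted, so no culture was left unirradiated. Each genotype had 4 Affymetrix arrays, called biological replicates in the labels, which do not say whether each came from a separate mouse, and p-values measure the spread between these arrays.

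Collagens are triple-helical proteins of the extracellular matrix. Fibrillar collagens such as types I, III and V assemble into the rope-like fibrils that carry load, while types IV and XVIII belong to basement membranes, type VIII forms networks under endothelium, type VI forms beaded filaments around cells, and type XII lies along fibril surfaces. Versican, a large proteoglycan that binds hyaluronan, and tenascin C, a glycoprotein found in the niches of marrow and in injured tissue, fill the matrix between the fibrils. In marrow this matrix surrounds vessels, bone-lining cells and blood-forming cells.

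The values are relative log2 levels, so a difference of 1 unit is a 2-fold difference, and levels of different probe sets cannot be set against each other. Array medians lay between 7.98 and 8.43. Crebbp itself was lower in Crebbp+/- than in wild-type stroma (log2 fold change -0.78, SE 0.20, limma adjusted p = 0.0372, kept in 3 of the 12 fits that each leave out 1 array), and Ep300 had no probe set among those analysed here. The Y-linked Eif2s3y was 2.73 on Crebbp+/- array 1 and 2.69 on Crebbp+/- array 3, where the other 10 arrays held 8.41 to 10.84. The inflammatory cytokine Tnf was 14.38 on Crebbp+/- array 3, 14.36 and 12.29 on Ep300+/- arrays 3 and 2, and 7.76 to 9.03 on the wild-type arrays. Array values below are given in the order of the replicate numbers. Same-numbered arrays deviated together between Crebbp+/- and both other genotypes, so tests with the replicate number as a block are given beside the plain ones where they change a call.

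Collagen chains of basement membranes and networks, with the fibrillar Col5a3, were highest in Crebbp+/- stroma, and 3 probe sets of Col18a1 and Col5a3 rose by 2.05-fold to 2.33-fold over Ep300+/- stroma. Col3a1, Col2a1 and Col12a1 also had their highest means in Crebbp+/- stroma. Of these, Col3a1 was 2.21-fold over Ep300+/- stroma and did not pass (limma adjusted p = 0.0601). The probe sets of Col1a2 and Col6a3 went the other way, with their lowest means in Crebbp+/- and their highest in wild-type stroma, although Col1a2 was below the lower signal bound of the table on every heterozygote array. Vcan had its lowest mean in Ep300+/- stroma, and Tnc means differed little among the genotypes. Against wild-type stroma 0 of the 14 probe sets passed the test in either heterozygote. For Crebbp+/- stroma that count was 8 with arrays paired by number and 11 with array weights. It was 2 without Crebbp+/- array 4 and 2 without Ep300+/- array 3. Of all 3109 probe sets, 192 passed in the plain fit, 812 with arrays paired and 1425 with array weights. Without Crebbp+/- array 4, 383 passed. The 8, the 11 and the 2 without Ep300+/- array 3 include Col1a2, whose lower values are a description and support nothing. For Ep300+/- stroma the member count stayed at 0 in those fits.

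**Figure D1:**
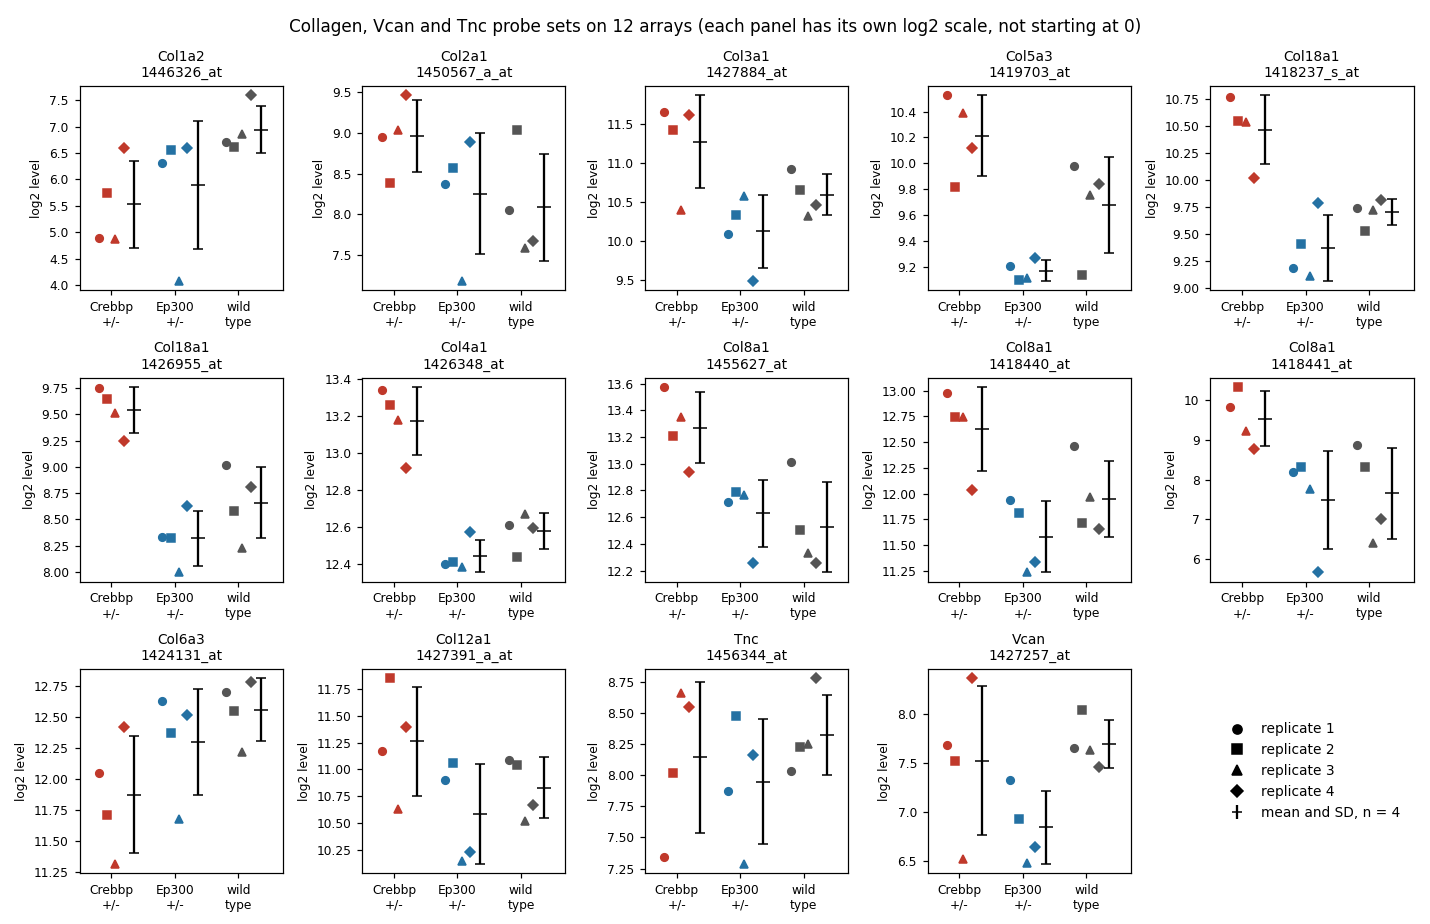
Log2 level (y axis, own scale in each panel) of each of the 14 probe sets on the 12 arrays, by genotype (x axis), with marker shapes for replicate numbers and bars for mean ± SD (n = 4). The 4 Crebbp+/- values of Col18a1 and Col4a1 lie above every Ep300+/- and wild-type value, and Col1a2 is at 4.08 on Ep300+/- array 3.

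Start-site regions are shown for the genes whose results are described most fully. These are Col18a1 and Col5a3, which rose between the heterozygotes, and Col8a1, whose 3 probe sets moved alike. Col1a2, which had its lowest mean in Crebbp+/- stroma, is shown too. Each line holds the 250 bases before a transcription start in RefSeq, build GRCm38.p6, 5′ to 3′ on the gene's strand, with the 2 starts of Col18a1 on separate lines. Capitals mark the GC box GGGCGG and the CCAAT box CCAAT, with their reverse complements CCGCCC and ATTGG.
Col18a1, chr10:77166531-77166780, minus strand: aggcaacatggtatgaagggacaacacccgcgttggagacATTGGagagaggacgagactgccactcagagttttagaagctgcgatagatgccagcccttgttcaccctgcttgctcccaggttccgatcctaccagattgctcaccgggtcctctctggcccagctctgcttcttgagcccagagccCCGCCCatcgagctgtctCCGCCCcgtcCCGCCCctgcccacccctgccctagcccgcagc
Col18a1, chr10:77113706-77113955, minus strand: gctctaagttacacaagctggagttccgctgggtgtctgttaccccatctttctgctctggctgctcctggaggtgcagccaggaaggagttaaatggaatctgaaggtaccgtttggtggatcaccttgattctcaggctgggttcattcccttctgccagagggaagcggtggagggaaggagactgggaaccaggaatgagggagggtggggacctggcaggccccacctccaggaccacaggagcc
Col5a3, chr9:20815068-20815317, minus strand: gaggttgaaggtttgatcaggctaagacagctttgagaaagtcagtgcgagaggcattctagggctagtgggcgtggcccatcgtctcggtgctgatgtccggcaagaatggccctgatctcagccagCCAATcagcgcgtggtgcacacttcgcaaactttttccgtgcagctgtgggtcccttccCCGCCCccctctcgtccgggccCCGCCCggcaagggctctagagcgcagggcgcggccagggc
Col8a1, chr16:57754738-57754987, minus strand: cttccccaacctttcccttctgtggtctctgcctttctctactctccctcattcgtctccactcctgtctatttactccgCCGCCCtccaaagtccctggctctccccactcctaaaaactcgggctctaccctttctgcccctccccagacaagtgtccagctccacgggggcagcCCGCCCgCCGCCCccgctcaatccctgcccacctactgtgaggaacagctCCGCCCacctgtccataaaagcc
Col1a2, chr6:4505368-4505617, plus strand: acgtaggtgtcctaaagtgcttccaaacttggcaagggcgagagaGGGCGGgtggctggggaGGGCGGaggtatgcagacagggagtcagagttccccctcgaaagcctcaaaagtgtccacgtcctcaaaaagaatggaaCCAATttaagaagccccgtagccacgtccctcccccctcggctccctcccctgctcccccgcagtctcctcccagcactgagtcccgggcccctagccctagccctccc

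Promoter windows were found for 9 of the 11 genes, 11 windows in all, and Col2a1 and Col12a1 were not in the table used. A GC box stood in 7 of the 11 windows (6 genes) and in 32.7% of all 32851 windows of the same length. A CCAAT box stood in 5 windows, against 33.8% of all windows. The TATA box letters TATAAA stood in 3 windows, the single one of Col3a1 and both overlapping ones of Tnc, against 12.4% of all windows. Neither the cAMP response element TGACGTCA nor the shorter TGACG inside it was found in these 11 windows on either strand, while 1.55% and 17.8% of all windows hold them. CREB, the factor for which the Crebbp protein is named, binds this element. A match or its absence describes these letters in these windows and shows nothing about binding.

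Basement membrane and network collagens had the clearest separation of genotypes. Col18a1, whose type XVIII chain is the precursor of endostatin, was measured by 2 probe sets. On probe set 1418237_s_at its levels were 10.77, 10.55, 10.54 and 10.02 in Crebbp+/- stroma, 9.19, 9.40, 9.11 and 9.79 in Ep300+/- stroma and 9.74, 9.53, 9.72 and 9.81 in wild-type stroma. All 4 Crebbp+/- arrays lay above all 8 others, and the Ep300+/- and wild-type arrays overlapped. The heterozygotes differed 2.14-fold, a log2 difference of 1.10 (SE 0.25, limma adjusted p = 0.0245). Probe set 1426955_at gave 9.75, 9.65, 9.51 and 9.24 in Crebbp+/- stroma, 8.33, 8.32, 8.0 and 8.63 in Ep300+/- stroma and 9.02, 8.58, 8.23 and 8.80 in wild-type stroma. It showed the same order, with Crebbp+/- over Ep300+/- at 1.22 (SE 0.25, 2.33-fold, limma adjusted p = 0.0188). For the 2 probe sets, Crebbp+/- over wild-type was 0.77 and 0.88 on the log2 scale (SE 0.25 for each), with limma adjusted p = 0.0811 and 0.0568. With the replicate block both passed (limma adjusted p = 0.0420 and 0.0176).

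Those Col18a1 calls between the heterozygotes rested on few arrays. The first was lost without Crebbp+/- 1, 2 or 3 or Ep300+/- 1 or 2 (limma adjusted p from 0.0507 to 0.0953), and the second without Crebbp+/- 1 or 2 or Ep300+/- 1 (0.0617 to 0.0841). Both were lost with Eif2s3y as a covariate (limma adjusted p = 0.244 and 0.202), a fit in which 0 of the 3109 probe sets passed in any comparison. On the 2 Crebbp+/- arrays with low Eif2s3y, arrays 1 and 3, Col18a1 was at 10.77 and 10.54 on the first probe set and 9.75 and 9.51 on the second. On arrays 2 and 4, where Eif2s3y was 8.41 and 9.22, it was at 10.55 and 10.02 on the first and 9.65 and 9.24 on the second.

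Col4a1, a chain of the type IV network found in all basement membranes, had the tightest groups. Its levels were 13.34, 13.26, 13.18 and 12.92 in Crebbp+/- stroma, 12.40, 12.41, 12.38 and 12.57 in Ep300+/- stroma and 12.61, 12.44, 12.67 and 12.59 in wild-type stroma. Every Crebbp+/- array was again above all 8 others. The log2 fold change was 0.73 over Ep300+/- stroma (SE 0.21, limma adjusted p = 0.0520) and 0.60 over wild-type stroma (SE 0.21, limma adjusted p = 0.0987), and neither passed. With the replicate block both did (limma adjusted p = 0.0180 and 0.0377). Without Crebbp+/- array 4, the lowest of its genotype, Crebbp+/- minus Ep300+/- was 0.82 and passed without the block too (limma adjusted p = 0.0291).

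Col8a1 encodes a chain of type VIII collagen, which vessel wall and endothelial cells lay down, and its 3 probe sets ran in parallel. The brightest, 1455627_at, was at 13.58, 13.21, 13.35 and 12.94 in Crebbp+/- stroma, 12.71, 12.79, 12.76 and 12.26 in Ep300+/- stroma and 13.01, 12.51, 12.33 and 12.26 in wild-type stroma. Probe set 1418440_at was at 12.98, 12.75, 12.75 and 12.04 in Crebbp+/- stroma, 11.93, 11.82, 11.24 and 11.34 in Ep300+/- stroma and 12.46, 11.71, 11.96 and 11.66 in wild-type stroma. The dimmest, 1418441_at, was at 9.82, 10.34, 9.22 and 8.76 in Crebbp+/- stroma, 8.20, 8.32, 7.78 and 5.67 in Ep300+/- stroma and 8.89, 8.32, 6.40 and 7.01 in wild-type stroma. On this probe set Ep300+/- array 4 and wild-type array 3 were below the lower signal bound of the table, 6.64. Crebbp+/- and Ep300+/- arrays did not overlap on any of the 3, while wild-type array 1 reached into the Crebbp+/- range on each. Over Ep300+/- stroma the log2 fold changes were 0.64 (SE 0.26), 1.05 (SE 0.29) and 2.04 (SE 0.65), with limma adjusted p = 0.143, 0.0516 and 0.0780. Over wild-type stroma they were 0.74, 0.68 and 1.88, with limma adjusted p = 0.0987, 0.163 and 0.0996. The replicate block brought all 6 past the threshold, with limma adjusted p = 0.0318, 0.00883 and 0.00868 over Ep300+/- stroma and 0.0205, 0.0388 and 0.0125 over wild-type stroma. Without Crebbp+/- array 4 the second probe set passed over Ep300+/- stroma with no block (log2 fold change 1.24, limma adjusted p = 0.0180).

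Fibrillar collagens did not share 1 order of genotypes. Col5a3, a minor type V chain that joins heterotypic fibrils, was at 10.52, 9.82, 10.39 and 10.12 in Crebbp+/- stroma, 9.21, 9.10, 9.12 and 9.27 in Ep300+/- stroma and 9.98, 9.14, 9.75 and 9.84 in wild-type stroma. The 4 Ep300+/- values spanned less than 0.2 and lay below every Crebbp+/- value, and wild-type stroma overlapped with both. Over Ep300+/- stroma it rose 2.05-fold, a log2 difference of 1.04 (SE 0.25, limma adjusted p = 0.0310). Over wild-type stroma the value was 0.54 (SE 0.25, limma adjusted p = 0.195, and 0.0640 with the replicate block). The call was lost without Crebbp+/- 1, 2 or 3, Ep300+/- 1, 2 or 4 or wild-type 4 (limma adjusted p from 0.0513 to 0.124), and with Eif2s3y as a covariate (0.258).

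Col3a1, the chain of type III collagen that makes up the reticular fibres of marrow, was at 11.65, 11.43, 10.39 and 11.61 in Crebbp+/- stroma, 10.09, 10.34, 10.57 and 9.49 in Ep300+/- stroma and 10.93, 10.65, 10.32 and 10.46 in wild-type stroma. Crebbp+/- arrays 1, 2 and 4 lay above all 8 others, and array 3 lay among them. Crebbp+/- minus Ep300+/- was 1.15 (SE 0.33, limma adjusted p = 0.0601), which passed with the replicate block (limma adjusted p = 0.0292). It also passed without the block when Crebbp+/- 3 or Ep300+/- 3 was left out (1.44, limma adjusted p = 0.0349, and 1.30, limma adjusted p = 0.0417). These are the 2 arrays on which Tnf was highest. Over wild-type stroma the log2 fold change was 0.68 (SE 0.33, limma adjusted p = 0.210), positive in 4 of 4 same-numbered pairs, with pair 3 at 0.068.

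Col1a2 encodes the alpha-2 chain of type I collagen, the main collagen of bone. It had its highest mean in wild-type and its lowest in Crebbp+/- stroma. Its levels were 4.90, 5.74, 4.87 and 6.60 in Crebbp+/- stroma, 6.32, 6.56, 4.08 and 6.60 in Ep300+/- stroma and 6.71, 6.61, 6.86 and 7.59 in wild-type stroma. Every probe set in the table reaches the log2 of 100, which is 6.64, on at least 3 arrays, and for Col1a2 these were 3 wild-type arrays and no heterozygote array. The probe set thus has a value only through the genotype in which it is high, so its lower values in the heterozygotes are a description and support nothing. Wild-type arrays were the highest 4 of the 12, although the lowest of them, 6.61, nearly met the highest of each heterozygote, 6.60. The log2 fold change from wild-type was -1.42 in Crebbp+/- stroma (SE 0.56, limma adjusted p = 0.135) and -1.05 in Ep300+/- stroma (SE 0.56, limma adjusted p = 0.965). Crebbp+/- was lower in 4 of 4 same-numbered pairs, by -0.87 to -1.99 on the log2 scale, with limma adjusted p = 0.0346 under the replicate block and 0.0432 without Ep300+/- array 3. That single array, at 4.08, moved the Ep300+/- difference from wild-type to -0.45 when it was left out.

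The platform annotation gives no RefSeq transcript for the Col1a2, Col3a1, Vcan and Tnc probe sets, nor for 5 of the other 10, so which stretch of these genes they measure is not known here. Col2a1, the type II chain typical of cartilage, ranged from 8.39 to 9.46 in Crebbp+/- stroma, 7.18 to 8.89 in Ep300+/- stroma and 7.58 to 9.03 in wild-type stroma. The genotypes overlapped, and its log2 fold change was 0.88 in Crebbp+/- minus wild-type (SE 0.42, limma adjusted p = 0.199) and 0.17 in Ep300+/- minus wild-type.

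Col6a3, the large chain of beaded type VI filaments, was at 12.05, 11.71, 11.32 and 12.42 in Crebbp+/- stroma, 12.63, 12.37, 11.68 and 12.51 in Ep300+/- stroma and 12.70, 12.55, 12.22 and 12.78 in wild-type stroma. Groups overlapped, but in 4 of 4 same-numbered sets Crebbp+/- was below both Ep300+/- and wild-type. Crebbp+/- minus wild-type was -0.69 (SE 0.30, limma adjusted p = 0.169), and with the replicate block it passed (limma adjusted p = 0.0249). Crebbp+/- minus Ep300+/- was -0.42 and passed neither way (limma adjusted p = 0.443, and 0.121 with the block).

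Col12a1, which coats fibrils, was at 11.17, 11.85, 10.63 and 11.40 in Crebbp+/- stroma, 10.90, 11.06, 10.15 and 10.24 in Ep300+/- stroma and 11.09, 11.04, 10.52 and 10.67 in wild-type stroma. All 3 genotypes overlapped and had their lowest value on array 3. Crebbp+/- minus Ep300+/- was 0.67 (SE 0.32, limma adjusted p = 0.209), and it passed with the replicate block (limma adjusted p = 0.0401). Over wild-type stroma the value was 0.43 (limma adjusted p = 0.403), with 0.23 without Crebbp+/- array 2, 0.64 without Crebbp+/- array 3 and 0.15 after quantile normalization.

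Vcan was at 7.68, 7.51, 6.52 and 8.36 in Crebbp+/- stroma, 7.32, 6.93, 6.48 and 6.64 in Ep300+/- stroma and 7.65, 8.04, 7.63 and 7.46 in wild-type stroma. The Ep300+/- arrays all lay below the wild-type arrays, whereas the Crebbp+/- arrays spanned nearly the whole range. Ep300+/- minus wild-type was -0.85 (SE 0.36), with an unadjusted limma p of 0.033 and an adjusted p = 0.965. Crebbp+/- minus wild-type was -0.17 (limma adjusted p = 0.758) and turned to 0.16 without Crebbp+/- array 3 and to 0.30 with Eif2s3y as a covariate. Crebbp+/- minus Ep300+/- was 0.68 (SE 0.36, limma adjusted p = 0.263).

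Tnc was at 7.34, 8.02, 8.66 and 8.55 in Crebbp+/- stroma, 7.87, 8.48, 7.29 and 8.16 in Ep300+/- stroma and 8.04, 8.22, 8.25 and 8.78 in wild-type stroma. The genotypes overlapped throughout. Its log2 fold changes were -0.18 (SE 0.35) for Crebbp+/- minus wild-type, -0.37 for Ep300+/- minus wild-type and 0.19 for Crebbp+/- minus Ep300+/-, with limma adjusted p = 0.743, 0.965 and 0.824. The first turned to 0.087 without Crebbp+/- array 1, and the third to -0.027 without Ep300+/- array 3.

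**Figure D2:**
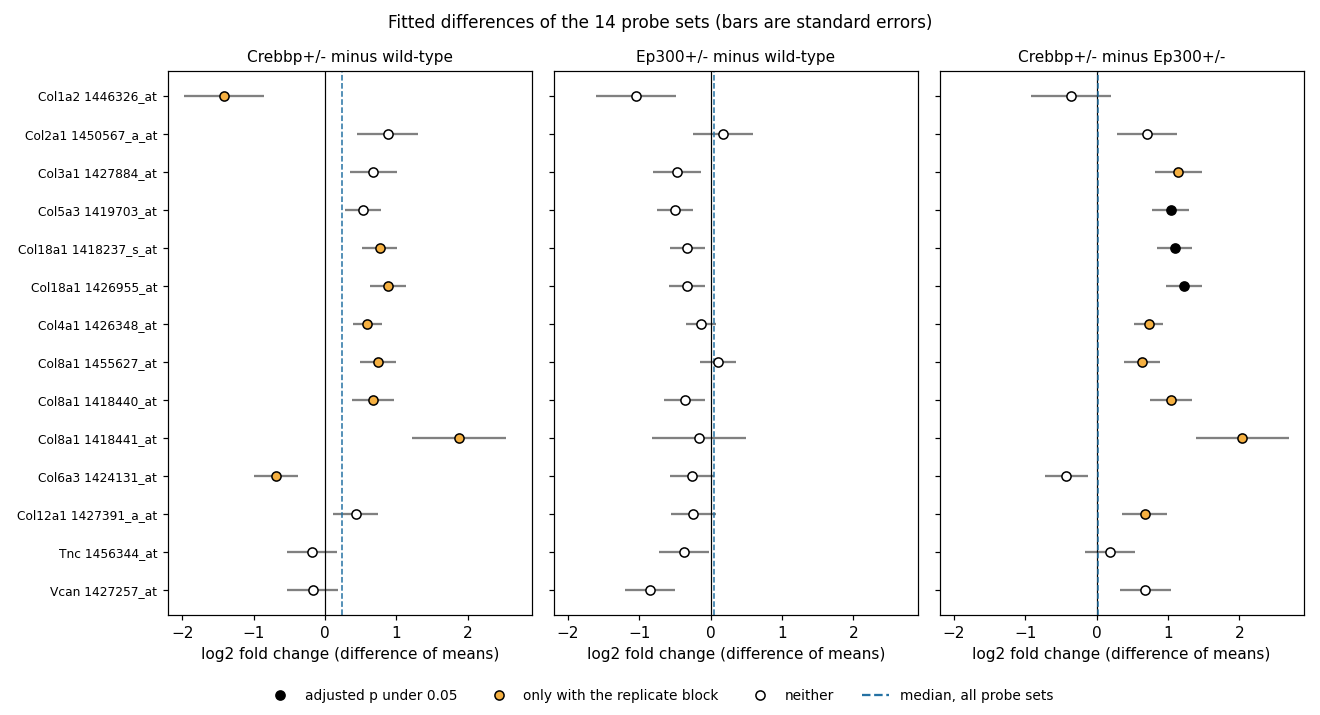
Fitted log2 fold change (x axis, point) with its SE (bar) for each of the 14 probe sets in the 3 comparisons, with fill for the test outcome and a dashed line at the median of all 3109 probe sets. Filled black points, the 3 calls without the block, are only in the panel for Crebbp+/- minus Ep300+/-.

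Counted over the 3 comparisons, the members were called as follows. Between Crebbp+/- and wild-type stroma 0 of 14 probe sets passed, where 192 of all probe sets did (6.18%). At an unadjusted p under 0.05 there were 8 of 14, against 26.7% of all. With the replicate block 6 of 14 rose (Col4a1, both of Col18a1 and all 3 of Col8a1), against 17.5% of all probe sets, and 2 were lower, against 8.62%. Of those 2, Col6a3 fell, while Col1a2 had its place in the table through wild-type arrays alone and is not read as a fall. Groups that did not overlap were found for 3 members on the higher side, against 10.4% of all probe sets, and for 1 on the lower side, against 8.46%, which was Col1a2.

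Between Ep300+/- and wild-type stroma 0 of 14 passed, as did 0% of all probe sets, and with the replicate block 0 of 14 passed, against 0.0322% of all. Vcan alone had an unadjusted limma p under 0.05, against 4.05% of all probe sets. In 2 members, Vcan and Col1a2, Ep300+/- values lay wholly below wild-type, against 2.16% of all probe sets, and 0 members lay wholly above, against 1.99%. Col1a2 reached the log2 of 100 in wild-type stroma alone, so its separation is no support. Vcan reached it on 3 Crebbp+/-, 2 Ep300+/- and 4 wild-type arrays, so part of its Ep300+/- values lay under that bound too.

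Between Crebbp+/- and Ep300+/- stroma 3 of 14 passed, where 6.4% of all probe sets did (25.2% had an unadjusted p under 0.05, and 8 of 14 members), and all 3 were higher in Crebbp+/- stroma, against 4.89%. With the replicate block 9 of 14 rose, against 19.1% of all. The 7 probe sets of Col18a1, Col4a1, Col8a1 and Col5a3 had Crebbp+/- values wholly above Ep300+/- values, against 9.13% of all probe sets, and 0 lay wholly below, against 4.34%. The count of 3 became 1 without Ep300+/- array 2, 5 without Crebbp+/- array 4, and 0 without Crebbp+/- 1, Crebbp+/- 2 or Ep300+/- 1.

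Fibrillar and other collagens had similar medians when each gene was represented by its brightest probe set. For Crebbp+/- minus wild-type the median log2 fold change was 0.61 over the 4 fibrillar genes and 0.60 over the 5 other genes, against 0.24 over all probe sets. The last value is a shift of the whole table. After quantile normalization it was 0.022 and the medians were 0.33 and 0.28, so part of each lay in the shift. Of the 14 single differences in this comparison, 9 moved by over 1.5 times with that normalization, all 7 positive ones among them towards 0. In Ep300+/- minus wild-type the medians were -0.49 and -0.25 (all probe sets 0.049), and in Crebbp+/- minus Ep300+/- they were 0.87 and 0.67 (all probe sets 0.025). Col6a3 ran against the other non-fibrillar collagens in Crebbp+/- minus wild-type. Among fibrillar collagens only Col1a2 was negative there. It has its place in the table through wild-type arrays alone, so its sign is a description, and it enters the fibrillar medians above. Crebbp+/- minus wild-type and Crebbp+/- minus Ep300+/- share the Crebbp+/- arrays, so their values are not independent.

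By order of means, 8 probe sets had Crebbp+/- highest and Ep300+/- lowest, and 2 each had the orders Crebbp+/-, Ep300+/-, wild-type (Col2a1 and Col8a1 1455627_at), wild-type, Crebbp+/-, Ep300+/- (Vcan and Tnc) and wild-type, Ep300+/-, Crebbp+/- (Col1a2 and Col6a3). No 2 neighbours in these orders passed the test without the block. Col18a1 and Col5a3 passed it between the ends of their order, Crebbp+/- and Ep300+/-.

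Genes that make, accompany, bind or cut these proteins were read from 4 lists. Of all probe sets, 6.18% passed in Crebbp+/- minus wild-type, 0% in Ep300+/- minus wild-type and 6.4% in Crebbp+/- minus Ep300+/-. With the replicate block 19.1% of all rose in the last comparison. Of the processing and crosslinking list 7 of 28 genes were measured, and 0 rose and 0 fell in each comparison. Bmp1, which trims procollagen ends, was 0.80 higher on the log2 scale in Crebbp+/- than in Ep300+/- stroma (SE 0.22, limma adjusted p = 0.0505), and Plod2, a lysyl hydroxylase of collagen, was 0.71 higher (limma adjusted p = 0.132). With the replicate block those 2 and the prolyl hydroxylase gene P4ha1 passed in that comparison (limma adjusted p = 0.0208, 0.0331 and 0.0338).

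Fibril and matrix partners were measured for 16 of 43 genes. Between the heterozygotes 1 of 16 rose, where 4.89% of all probe sets did. This was Thbs2, a matricellular thrombospondin whose loss in mice disturbs collagen fibrils. It was at 11.02, 11.07, 10.75 and 11.30 in Crebbp+/- stroma, against 10.30, 10.31, 9.73 and 9.50 in Ep300+/- stroma, with no overlap (log2 fold change 1.07, SE 0.28, limma adjusted p = 0.0406), but the call was kept in only 2 of the 12 fits that leave out 1 array (highest limma adjusted p = 0.122, without Crebbp+/- 1). Nid1, a basement membrane linker of laminin and type IV collagen, was 0.90 higher in that comparison (limma adjusted p = 0.0602) and 0.71 higher in Crebbp+/- than in wild-type stroma (limma adjusted p = 0.116). Matn2, a matrilin, was at -0.80 in Crebbp+/- minus wild-type (limma adjusted p = 0.0787). In the comparisons with wild-type 0 of the 16 passed. With the block 5 of 16 rose between the heterozygotes, against 19.1% of all probe sets. They were Thbs2, Nid1 (limma adjusted p = 0.00883), Thbs1, Ogn and Fbln5. In Crebbp+/- minus wild-type 4 of 16 rose with the block, against 17.5% of all. They were Nid1 (limma adjusted p = 0.0219), Thbs1, Thbs2 and Ogn. Matn2 was lower (limma adjusted p = 0.0359), as were 8.62% of all probe sets. Matn2 reached the log2 of 100 on 0 Crebbp+/-, 3 Ep300+/- and 4 wild-type arrays.

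Among receptors 6 of 16 genes were measured. Itga10, which encodes the alpha chain of a collagen-binding integrin known from cartilage, was at 5.22, 4.68, 4.41 and 5.73 in Crebbp+/- stroma, 7.22, 7.20, 6.51 and 7.19 in Ep300+/- stroma and 6.77, 6.52, 7.11 and 7.38 in wild-type stroma. Every Crebbp+/- value was below every other value. It reached the log2 of 100 on 0 Crebbp+/-, 3 Ep300+/- and 3 wild-type arrays, so its place in the table rested on the genotypes in which it is high. Its lower values in Crebbp+/- stroma are thus a description and are not read as a fall. The log2 fold change was -1.93 from wild-type stroma (SE 0.33, limma adjusted p = 0.0129) and -2.02 from Ep300+/- stroma (SE 0.33, limma adjusted p = 0.0116). The first call was lost without Crebbp+/- 1 or 2 or wild-type 4 and the second without Ep300+/- 1, with limma adjusted p from 0.0501 to 0.0548. Itgb3, the beta chain shared by vitronectin and fibrinogen receptors, rose by 1.99 in Crebbp+/- minus Ep300+/- (SE 0.35, limma adjusted p = 0.0127, lost without Crebbp+/- 1 at 0.0616 or Ep300+/- 1 at 0.0547) and was 1.20 higher than in wild-type stroma (SE 0.35, limma adjusted p = 0.0627). Itgb3 reached that bound on 3 Crebbp+/-, 0 Ep300+/- and 1 wild-type arrays, so its rise is a description too. With the replicate block Itgb3 passed over wild-type stroma too (limma adjusted p = 0.0244), with Itga1, the alpha chain of another collagen-binding integrin (0.0123), and Itgav, the partner of Itgb3 in the vitronectin receptor (0.0176), and with the block the same 3 genes rose over Ep300+/- stroma. Thus 3 of 6 receptors, Itgb3 among them, rose with the block in each Crebbp+/- comparison. Itga10 was lower in both, which is not read as a fall. Of all probe sets, 17.5% rose over wild-type and 19.1% over Ep300+/- stroma with the block. Of the proteases 7 of 13 were measured and 0 passed in each comparison without the block. The closest were Mmp9, a gelatinase, at -1.94 in Crebbp+/- minus Ep300+/- (SE 0.72, limma adjusted p = 0.116), and Adamts9, a versican-cleaving protease, at 1.31 (SE 0.51, limma adjusted p = 0.132). With the block 2 of 7 proteases rose in each Crebbp+/- comparison, beside the same 19.1% and 17.5% of all probe sets. Over Ep300+/- stroma they were Adamts9 and Adamts15 (limma adjusted p = 0.00632 and 0.0422). Over wild-type stroma they were Adamts4 and Adamts9 (limma adjusted p = 0.0240 and 0.0244). Adamts15 reached the log2 of 100 on 3 Crebbp+/-, 1 Ep300+/- and 0 wild-type arrays.

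**Figure D3:**
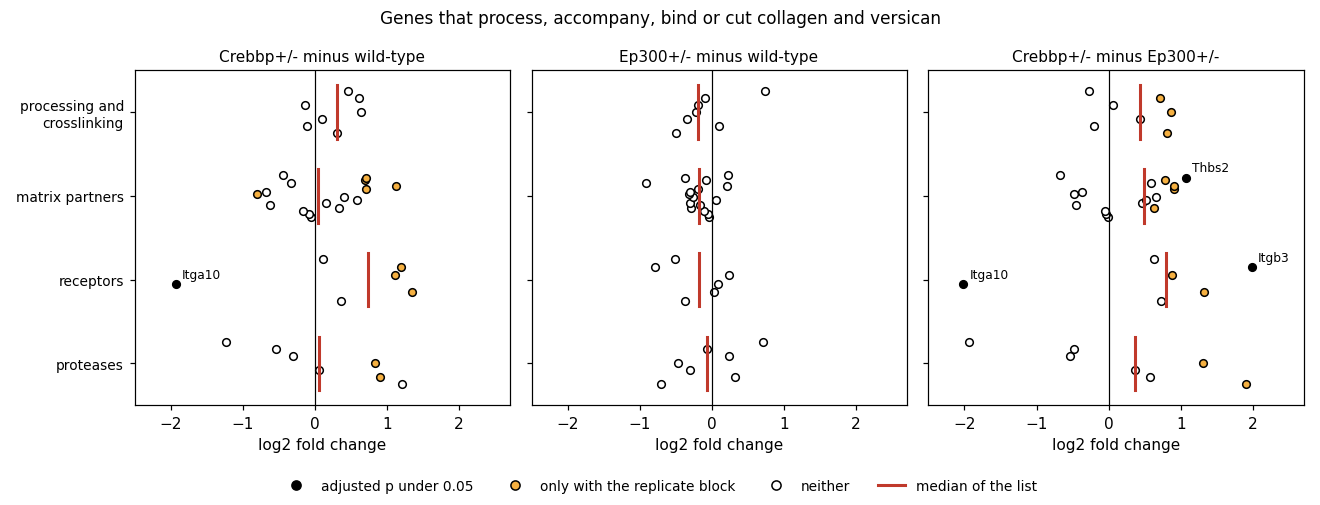
Log2 fold change (x axis) of each measured gene of the 4 lists (rows) in the 3 comparisons, with fill for the test outcome and a vertical bar at each list's median. Itga10 stands lowest in both Crebbp+/- comparisons at -1.93 and -2.02, and Thbs2 and Itgb3 are the genes that rose in Crebbp+/- minus Ep300+/-.

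Markers of other cell types moved with several of these genes. In bulk RNA, fewer cells of a type and less RNA per cell cannot be told apart. Endothelial markers were measured for 12 of 13 genes, and 8 rose in Crebbp+/- minus wild-type, 0 in Ep300+/- minus wild-type and 12 in Crebbp+/- minus Ep300+/-, with median log2 fold changes of 2.03, -0.44 and 2.33. These counts rested on few arrays: without 1 array the first ranged from 0 to 12 (0 without Crebbp+/- 1, Crebbp+/- 2 or wild-type 4) and the third from 0 to 12 (0 without Crebbp+/- 1 or Ep300+/- 1). Their mean, relative to the mean of all arrays, was 2.07, 1.70, 1.99 and 0.027 on Crebbp+/- arrays 1 to 4, between -1.45 and -0.40 on Ep300+/- arrays and between -0.85 and 0.38 on wild-type arrays. Array 4, the Crebbp+/- array with the lowest endothelial mean, was also the lowest of that genotype for Col18a1, Col4a1 and Col8a1. Ep300+/- array 4 had the lowest endothelial mean of all, -1.45. Yet it was the highest Ep300+/- array for Col18a1 (9.79 and 8.63), Col4a1 (12.57) and Col5a3 (9.27), and the lowest for Col8a1 1455627_at (12.26). Wild-type array 1, with the highest wild-type mean, was the wild-type array highest in Col8a1, Col5a3 and Col18a1 1426955_at. For Col4a1 that was wild-type array 3, and for Col18a1 1418237_s_at it was wild-type array 4. All 12 endothelial markers rose in both Crebbp+/- comparisons with the replicate block. Of all probe sets, 17.5% then rose over wild-type and 19.1% over Ep300+/- stroma. Without the block 6.18% of all passed in Crebbp+/- minus wild-type, and 4.89% rose in Crebbp+/- minus Ep300+/-. No marker of the list was at 0 on any array, and the lowest value was 3.28 for Icam2. Kdr, Erg and Icam2 reached the log2 of 100 on 3 Crebbp+/- arrays and on no other array, so they have values only through the genotype in which they are high. Tie1 and Cldn5 reached it on 3 Crebbp+/-, 0 Ep300+/- and 1 wild-type arrays. The endothelial counts, medians and array means include all of these genes, with Erg and Tie1 among the 8. Their rises are a description. Smooth muscle and pericyte markers were measured for 4 of 8 genes, and 2 rose in Crebbp+/- minus wild-type (3 with the block) and 3 in Crebbp+/- minus Ep300+/-. Their array means lay between 0.51 and 1.06 in Crebbp+/-, -1.0 and 0.021 in Ep300+/- and -0.97 and 0.20 in wild-type stroma. The part of these cell types in the collagen differences was not tested.

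Osteoblast markers were measured for 3 of 9 genes, and Ibsp, bone sialoprotein, fell by 1.75 in Crebbp+/- minus wild-type (SE 0.42, limma adjusted p = 0.0293) and by 1.67 in Crebbp+/- minus Ep300+/- (limma adjusted p = 0.0321). With the block Alpl, the bone alkaline phosphatase, also fell in Crebbp+/- minus wild-type (limma adjusted p = 0.0322). The Ibsp calls were kept in 6 and 5 of the 12 fits that leave out 1 array. The mean of the list lay between -0.95 and -0.32 on Crebbp+/- arrays, -0.35 and 0.70 on Ep300+/- arrays and 0.27 and 0.79 on wild-type arrays, the same order of genotypes as Col6a3. Col1a2 had that order too, but has its place in the table through wild-type arrays alone. The cartilage matrix gene Comp, the 1 measured of 7 chondrocyte markers, was at -2.71 and -2.45 in those comparisons (SE 0.30 for both, limma adjusted p = 0.00155 and 0.00437, kept in 12 of 12 such fits in both), while the cartilage collagen Col2a1 had positive values in both. Of the fibroblastic stroma markers, 5 of 11 were measured and 0 passed in each comparison without the block. Among 6 of 8 adipocyte markers Cd36 fell by 0.97 in Crebbp+/- minus wild-type (limma adjusted p = 0.0293), and among 3 of 9 macrophage markers Cd163 rose by 1.18 (limma adjusted p = 0.0228), calls kept in 4 and 6 of the 12 fits. With the block the adipocyte gene Cidec fell and the macrophage gene Fcgr1 rose too in that comparison, and in Crebbp+/- minus Ep300+/- the fibroblast gene Fap and Fcgr1 rose and S100a4 fell. Whether these differences bear on the collagens was not tested.

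**Figure D4:**
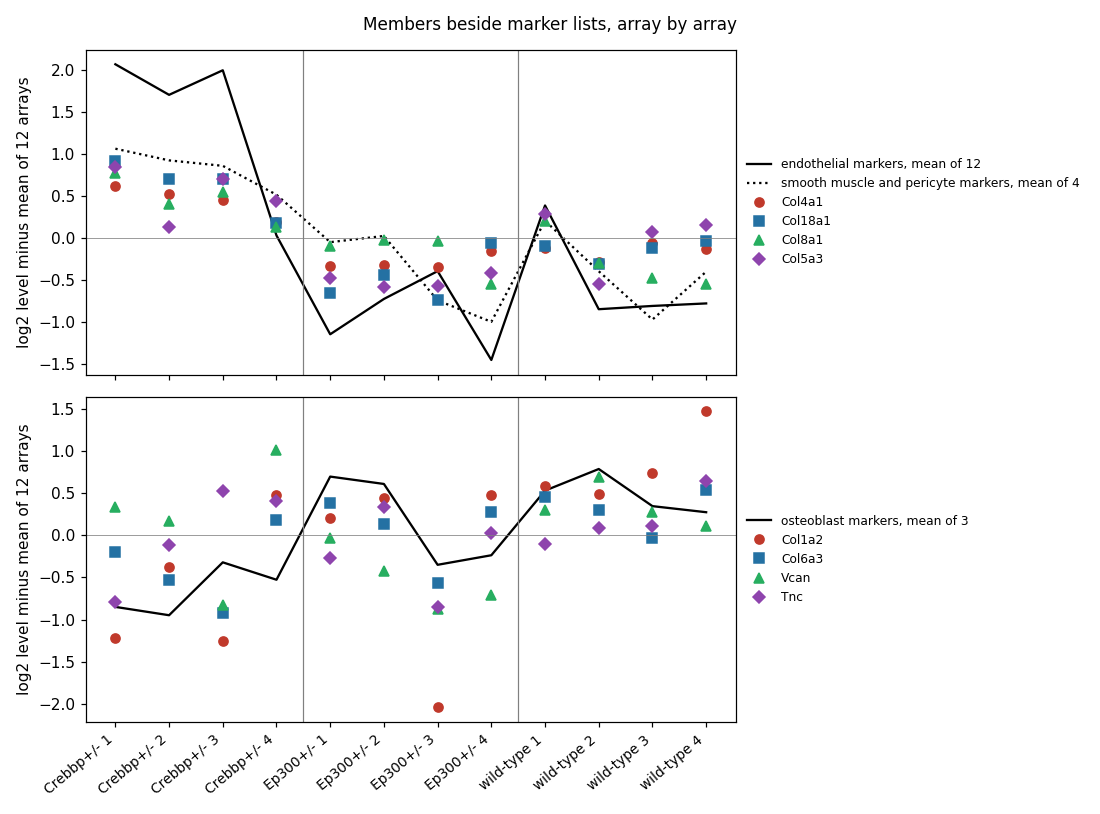
Log2 level minus the mean of the 12 arrays (y axis) for each array (x axis), for Col4a1, Col18a1, Col8a1 and Col5a3 with the endothelial and the smooth muscle marker means (top) and for Col1a2, Col6a3, Vcan and Tnc with the osteoblast marker mean (bottom), with the brightest probe set shown for each gene. The endothelial mean is 2.07, 1.70 and 1.99 on Crebbp+/- arrays 1 to 3 and 0.027 on array 4, and the osteoblast mean is below 0 on all 4 Crebbp+/- arrays.

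Array 3 of each heterozygote stood low for several matrix genes. Col1a2, Col6a3, Col12a1 and Vcan each had their lowest Crebbp+/- value on array 3 and their lowest Ep300+/- value on array 3, with Col1a2 on Crebbp+/- array 1 only 0.03 above. Tnc was lowest of its genotype on Ep300+/- array 3 and highest of its genotype on Crebbp+/- array 3. These are the arrays with Tnf at 14.38 and 14.36. Wild-type array 3, with Tnf at 9.03, was also lowest of its genotype for Col6a3 (12.22) and Col12a1 (10.52), but not for Col1a2 or Vcan. Ep300+/- array 2, with Tnf at 12.29, was lowest of its genotype for none of these genes. Whether Tnf bears on these levels was not tested. Without Crebbp+/- array 3 and Ep300+/- array 3, Crebbp+/- minus Ep300+/- was 1.59 for Col3a1 (limma adjusted p = 0.0201), and for Col18a1 it was 0.99 and 1.12 (limma adjusted p = 0.0615 and 0.0503).

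The genes most alike in pattern were taken as those of highest Pearson r over the 12 arrays among all genes with a single symbol, which is a choice of the largest among many, so r is given as a description. For Col1a2 they were Herc4 (r = 0.978), Ap2a2 (0.971) and Fgd3 (0.964), and for Col3a1 Snap29 (0.922), Pdzrn3 (0.900) and Mx1 (0.868). For Vcan they were Eif4ebp1 (0.836), Ptk7 (0.813) and Slc16a9 (0.811), and for Tnc Zfr (0.812), Ppcdc (0.772) and Meg3 (0.771). None of these 12 genes is on the matrix lists.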

How the data were processed

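Gene expression was measured on 12 Affymetrix arrays of irradiated primary bone marrow stroma, 4 each from Crebbp+/-, Ep300+/- and wild-type mice. The authors deposited log2 values. Per the submitters' processing notes these come from GCRMA, a method that removes sequence-dependent background, puts the arrays on 1 scale and joins the probes of a set. The sources used here give no version, chip definition, scan date or batch.

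The table held 3127 probe sets. The 18 control probe sets were left out and 3109 were tested. Per the values themselves, none had an interquartile range below 0.5001 or fewer than 3 arrays reaching the log2 of 100, so flat or dim genes have no value. A member that passed such a filter through 1 high group had to vary, so shares are set against the same share of all tested probe sets.

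No further normalization was applied. The lmFit and eBayes functions of limma 3.58.1 (R 4.3.3) fitted 1 mean per genotype over all 12 arrays, two-sided, with p-values adjusted over all 3109 probe sets (Benjamini-Hochberg) and calls at an adjusted p under 0.05. SE is limma's standard error, and SD is over 4 arrays. The number of arrays limits the precision. The scripts were tested on simulated data.

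The members and gene lists were chosen with earlier results of these data known. Array values are given for Col1a2, Col3a1, Vcan and Tnc and for members called with or without the block, and other members by range. List genes are named when called, otherwise up to 2 of smallest p, and values of 3 genes most alike are given. List genes that passed with the block only, Nid1 in Crebbp+/- minus Ep300+/-, Kdr, Erg, Icam2, Tie1, Cldn5, Eif2s3y and Tnf were named after their values were seen.

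Each genotype has replicates 1 to 4, with no label on what a number shares. Between same-numbered arrays, deviations from the genotype means had r of 0.448 to 0.603 (Crebbp+/- with wild-type) and 0.294 to 0.513 (Crebbp+/- with Ep300+/-). In each of these comparisons 3 of 4 Crebbp+/- arrays had their highest r with the same number. Crebbp+/- array 2 had it with array 1 of the other genotype, so its pairing is less certain. All same-numbered pairs being above 0.1, these arrays were taken as pairs. For Ep300+/- and wild-type r ran from 0.059 to 0.683, and they were not. Alternatives were quantile normalization, median centring, a filter at a mean of 6, eBayes with trend and robust, fits of 2 genotypes, array weights, the replicate block, Eif2s3y as a covariate and leaving out each array. Promoter sequences are RefSeq's on GRCm38.p6.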

Additional observations from a re-analysis of the deposited data

Results flagged for a closer look

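Among 42 groups of 4 arrays (14 probe sets in 3 genotypes) 3 held an array whose distance to its nearest neighbour, as a share of the group's range, passed Dixon's bound for 4 values. Chance puts about 1 in 20 groups past that bound. Col1a2 on Ep300+/- array 3 was at 4.08, where the other Ep300+/- arrays were between 6.32 and 6.60 (gap 0.8876 of the range). Col4a1 on Ep300+/- array 4 was at 12.57, where the others were between 12.38 and 12.41 (gap 0.8517 of the range). Col8a1, probe set 1455627_at, on Ep300+/- array 4 was at 12.26, where the others were between 12.71 and 12.79 (gap 0.8647 of the range). For Col1a2, Ep300+/- array 3 moved differences by over 1.5 times. Ep300+/- minus wild-type was -1.05 with that array and -0.45 without it, and Crebbp+/- minus Ep300+/- was -0.36 with it and -0.97 without it. For Col8a1 1455627_at, Ep300+/- minus wild-type was 0.10 and ran from 0.014 to 0.27 when 1 array was left out.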

How the results depend on the processing

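The number of members called depended on the fit. In Crebbp+/- minus wild-type the count of 0 became 8 with the replicate block, 11 with array weights, and 0 to 2 when 1 array was left out (2 without Crebbp+/- 4 or Ep300+/- 3). The 8, the 11 and the 2 without Ep300+/- 3 include Col1a2, which is not read as a fall. Of all 3109 probe sets, 192 passed in the main fit, 812 with the block, 1425 with array weights and 5 to 383 with 1 array left out. With alternatives chosen after seeing the data, the member count was 7 with the block and without Crebbp+/- 4, and 4 with the block after quantile normalization. In Crebbp+/- minus Ep300+/- the count of 3 became 9 with the block, 12 with array weights, 1 after quantile normalization or median centring, 0 in a fit of those 2 genotypes alone, 0 with Eif2s3y as a covariate, 1 without Crebbp+/- 3 and Ep300+/- 3 together, and 0 to 5 when 1 array was left out. Of all 3109 probe sets, 199 passed in the main fit, 760 with the block, 1533 with array weights and 190 after quantile normalization. In the fit of those 2 genotypes 51 passed, and with 1 array left out 2 to 374 did. The member count was 6 with the block and without Crebbp+/- 4, and 6 with the block after quantile normalization. In Ep300+/- minus wild-type the count was 0 in each alternative run, and with the replicate block, for numbers that do not pair those arrays, 1 of 3109 probe sets passed and no member. The array weights ran from 0.309 to 10.3, the highest for Crebbp+/- 1, and their estimation stopped before it converged. The median of other collagens in Crebbp+/- minus wild-type, 0.60, was 0.28 after quantile normalization, with or without the block.

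Directions turned only for differences that did not pass. In Ep300+/- minus wild-type, Col8a1 1455627_at was -0.096 after quantile normalization, with or without the block, Col12a1 was 0.0059 and Col8a1 1418441_at 0.19 with array weights, Col8a1 1418441_at was 0.45 without Ep300+/- 4, 0.25 without wild-type 1 and 0.060 without wild-type 2 (leaving out 1 array, -0.58 to 0.45), and Col2a1 was -0.043 without Ep300+/- 4 (-0.043 to 0.53). In Crebbp+/- minus wild-type, Vcan was 0.30 with Eif2s3y as a covariate and 0.16 without Crebbp+/- 3, alone or with Ep300+/- 3 (leaving out 1 array, -0.45 to 0.16), and Tnc was 0.087 without Crebbp+/- 1 (-0.35 to 0.087). In Crebbp+/- minus Ep300+/-, Col1a2 was 0.24 with Eif2s3y as a covariate, and Tnc was -0.027 without Ep300+/- 3 (leaving out 1 array, -0.027 to 0.46), -0.20 without Crebbp+/- 3 and Ep300+/- 3, and -0.71 with array weights, where it passed (limma adjusted p = 0.0290). The causes of these changes were not tested. The filter at a mean of 6 and eBayes with trend and robust left the 3 counts the same. Of the 42 member differences, 15 moved by over 1.5 times after quantile normalization and 19 when some single array was left out, and none of the 3 that passed was among them.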
